A study of Mus musculus with 18 samples.

Results

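The genes described here are 10 members of the epidermal growth factor (EGF) family and its receptors, taken from the count table by their symbols, out of 36757 genes with a row in it. They are 6 ligands of the EGF receptor (*Areg*, *Ereg*, *Tgfa*, *Btc*, *Hbegf* and *Egf*), the neuregulin *Nrg1*, and the receptors *Egfr*, *Erbb2* and *Erbb3*. All 10 passed the filter on low counts in every comparison.

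The ligands are made as membrane-anchored precursors that proteases such as ADAM17 cut free. Ligand binding pairs the receptor EGFR with itself or with ERBB2, which has no known ligand of its own, or ERBB3, whose kinase is weak and whose ligands are the neuregulins, and the pairs signal through RAS and ERK. In the intestine these signals drive crypt cell division and repair of the epithelium after injury, and organoid cultures of normal intestine need EGF in the medium.

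RNA was sequenced from C57BL/6 mice aged 6 to 8 weeks at the start of treatment, in 18 libraries of 6 groups with 3 libraries each. RNF138, the protein that the genotype concerns, is a ubiquitin ligase. For the colitis groups, mice labelled wild type (RNF138fl/fl) or RNF138-/- drank 2% dextran sulfate sodium (DSS) for 7 days and plain water for 14 days, repeated the cycle 2 times, and were killed 4 weeks after the last cycle. For the colitis-associated cancer (CAC) groups, mice of both genotypes also received the carcinogen azoxymethane (AOM) at 10 mg/kg in the peritoneum 4 days before the first DSS. For the organoid groups, fragments with tumors from such CAC mice of each genotype were digested and grown in matrigel. The study's methods list murine EGF among the additions to the organoid medium for both genotypes, so the organoids met added ligand. Which cells lacked *Rnf138*, and with which Cre if any, is not given in the sources used here. Nothing says whether the 3 libraries of a group came from separate mice or cultures, so p-values measure the spread between these libraries, which may be technical.

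*Rnf138* RNA did not follow the genotype labels, so the libraries are named by their label. In colitis *Rnf138* had 15.8, 18.1 and 25.2 counts scaled to library size (CPM) in RNF138fl/fl libraries and 19.4, 18.05 and 19.4 in libraries labelled RNF138-/-. In CAC it had 31.7, 31.6 and 25.5 CPM against 44.8, 50.8 and 51.1, a log2 fold change of 0.72 (SE 0.14, adjusted p = 0.0426 by edgeR), higher in 3 of 3 libraries labelled RNF138-/-. In organoids it had 33.0, 48.0 and 49.0 CPM against 43.3, 41.1 and 36.9. A deletion of part of the gene can leave RNA that is still counted, so these values do not check whether the protein was lost.

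Total counts were between 11514716 and 24390082 per library. All 10 epithelial markers (among them *Epcam*, *Cdh1* and *Vil1*) were detected in every group, which alone does not check the label. Their summed CPM was 7820 to 21489 in the 4 tissue groups. It was 10384 to 11534 in RNF138fl/fl organoids and 6172 to 9092 in those labelled RNF138-/-. The organoid libraries also held fibroblast RNA: the summed CPM of 10 fibroblast markers (*Col1a1*, *Dcn* and others) was 9970 to 25485 in RNF138fl/fl organoids and 44324 to 54835 in those labelled RNF138-/-, against 1129 to 2223 in the 4 tissue groups. In every organoid library labelled RNF138-/- the fibroblast sum was thus above the epithelial sum. In CAC libraries labelled RNF138-/-, 8 of 8 smooth muscle markers and 8 of 8 B and plasma cell markers passed the adjusted p and were lower, with summed levels of 142 to 278 and 125 to 215 CPM against 2683 to 9002 and 1514 to 2270. All 12 tissue libraries had counts of Y-linked genes, whereas the RNF138fl/fl organoids had 0 such counts and those labelled RNF138-/- had them, so in organoids genotype and sex of the source animals cannot be told apart. For the same reason sex cannot be told apart from model between organoids and CAC in RNF138fl/fl, or from the interaction of organoids and CAC. In bulk RNA, fewer cells of a type and less RNA per cell cannot be told apart in any value below.

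Of the ligands among the members, 3 lie on chromosome 5 (mm10): *Ereg* from 91074622 to 91093646 and *Areg* from 91139599 to 91148432, both on the plus strand, and *Btc* from 91357261 to 91402994 on the minus strand. *Tgfa* lies on chromosome 6 from 86195223 to 86275719 on the plus strand. *Tgfa* and *Btc* are shown because their RNA was lower together in organoids labelled RNF138-/-, and *Areg* because it lies between *Ereg* and *Btc* and gave no call there. The 250 bases before each start are from RefSeq (GRCm38.p6), 5′ to 3′ on the strand of the gene, with motif matches in capitals.
Tgfa, chr6:86194972-86195221, plus strand: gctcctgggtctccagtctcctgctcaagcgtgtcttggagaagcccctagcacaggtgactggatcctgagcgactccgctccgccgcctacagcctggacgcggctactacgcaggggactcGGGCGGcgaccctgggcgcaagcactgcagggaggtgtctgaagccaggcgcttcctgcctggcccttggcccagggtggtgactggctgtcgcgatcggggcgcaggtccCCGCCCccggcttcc
Btc, chr5:91402995-91403244, minus strand: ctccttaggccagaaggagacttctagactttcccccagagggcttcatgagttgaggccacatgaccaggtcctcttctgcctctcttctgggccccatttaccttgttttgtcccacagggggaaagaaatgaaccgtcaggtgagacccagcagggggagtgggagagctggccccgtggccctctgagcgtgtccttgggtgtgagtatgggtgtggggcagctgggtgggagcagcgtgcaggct
Areg, chr5:91139349-91139598, plus strand: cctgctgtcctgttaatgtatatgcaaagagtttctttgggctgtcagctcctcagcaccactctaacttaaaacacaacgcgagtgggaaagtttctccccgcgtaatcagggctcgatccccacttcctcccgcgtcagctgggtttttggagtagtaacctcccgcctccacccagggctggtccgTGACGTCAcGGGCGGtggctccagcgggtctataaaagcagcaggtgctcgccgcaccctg
Both strands were searched for AP-1 (TGANTCA, in 6.75% of 32851 mouse promoters of this length), the cAMP response element CRE (TGACGTCA, 1.55%), the GC box (GGGCGG, 32.7%), NF-kB (3.9%), TEAD (GGAATG, 12.6%) and TCF (TTCAAAG, 4.46%). *Areg* held a CRE 61 bases and a GC box 52 bases before its start. *Tgfa* held 1 GC box on each strand, at 126 and 15 bases before its start. *Btc* held none of the 6, which says only that these letters are not in this window. The sequences of *Tgfa* and *Btc* thus shared no motif match, and their G and C content was 69.2% and 59.6%.

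**Figure D1:**
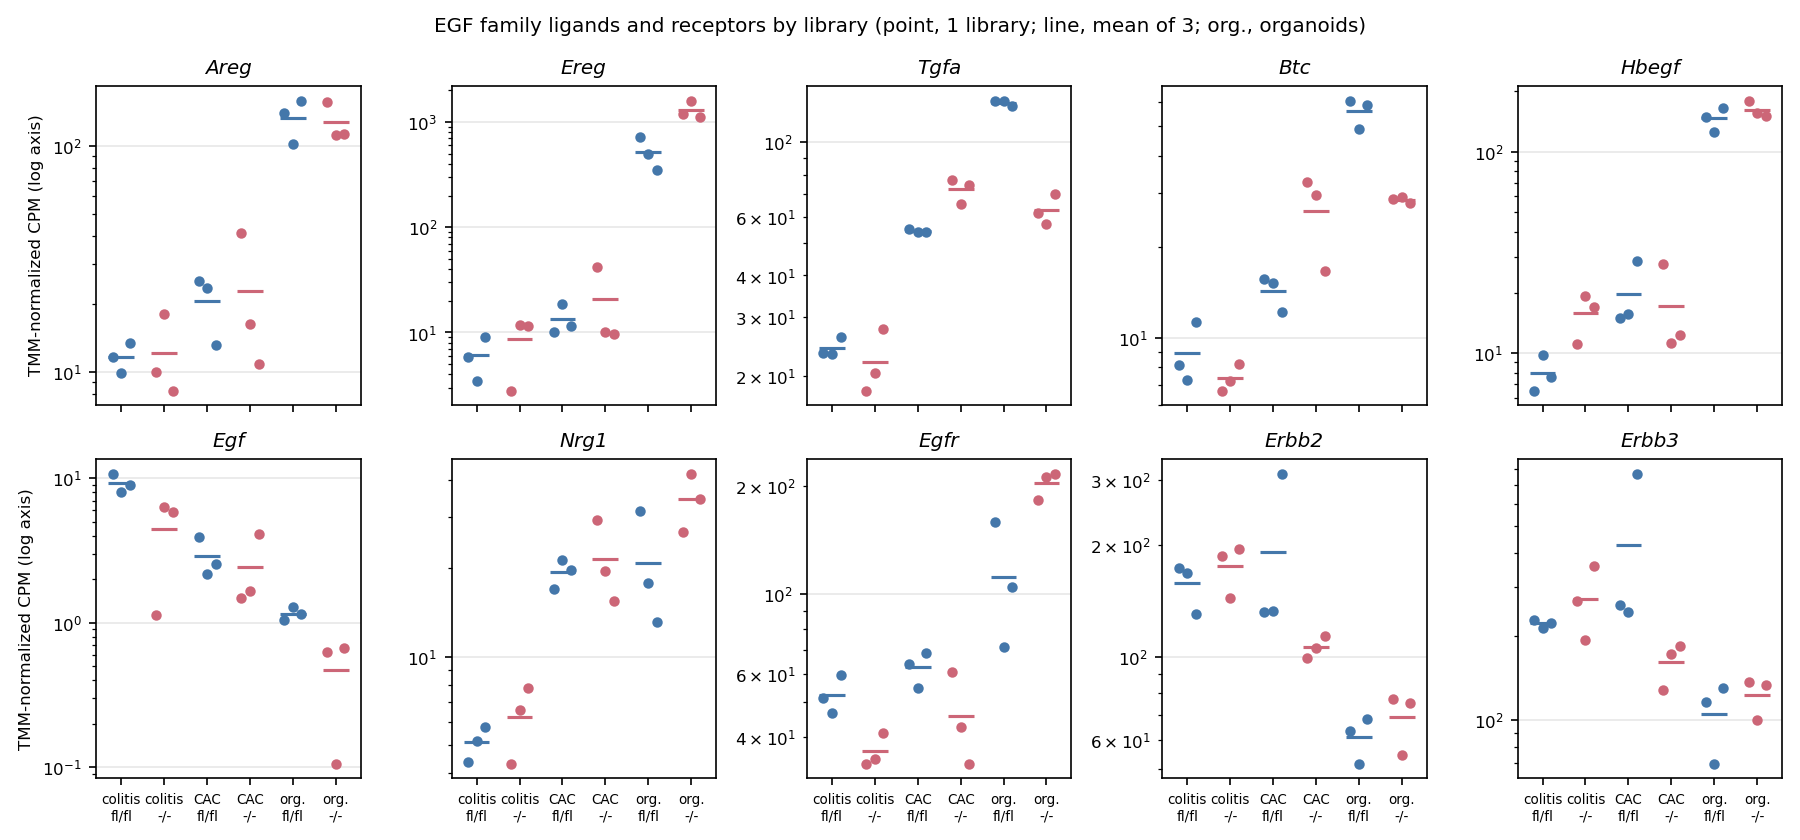
Level of each of the 10 genes in each of the 18 libraries, in TMM-normalized CPM of 1 fit of all libraries on a log axis, by group on the x axis (blue, RNF138fl/fl; red, labelled RNF138-/-; line, mean of 3). Ereg, Areg and Hbegf are highest in organoids, Erbb2 and Erbb3 have their lowest means there, and the 3 Tgfa points of RNF138fl/fl organoids lie above those of every other group.

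To compare levels between genes, counts were scaled by exon length to a level per length (TPM). In the 4 tissue groups the receptors led: *Erbb3* had the highest mean TPM, *Erbb2* came next and *Areg* was the highest ligand. *Erbb3* had mean levels of 102 TPM in RNF138fl/fl and 115 in RNF138-/- colitis, and of 194 and 105 TPM in CAC. In organoids the order was different: *Ereg* led, then *Areg*, then *Hbegf*, and *Erbb3* had 50.6 and 56.2 TPM. *Egf* or *Nrg1* was the lowest of the 10 in every group.

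The 6 EGFR ligands together had 53.2 ± 7.26 TPM (SD, n = 3) in RNF138fl/fl colitis and 52.9 ± 17.0 in libraries labelled RNF138-/-. Their sum was 107 ± 26.8 and 171 ± 76.0 TPM in CAC, and 856 ± 108 and 1280 ± 128 TPM in organoids. *Ereg*, which encodes epiregulin, a ligand of broad receptor range, made up 7.48% and 9.68% of the sum in colitis and 9.03% and 9.90% in CAC. In organoids it made up 41.6% (29.7% to 49.2%) in RNF138fl/fl and 66.7% (61.1% to 73.5%) in libraries labelled RNF138-/-. The share of *Areg*, the gene of amphiregulin, was 49.8% and 47.5% in colitis and 37.0% and 22.6% in organoids. *Tgfa*, the gene of transforming growth factor alpha, went from 23.4% and 28.4% of the sum in CAC to 6.90% and 2.10% in organoids. The ligand RNA of the organoids was thus mainly that of *Ereg* and *Areg*, and that of the tissues mainly *Areg* and *Tgfa*.

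**Figure D2:**
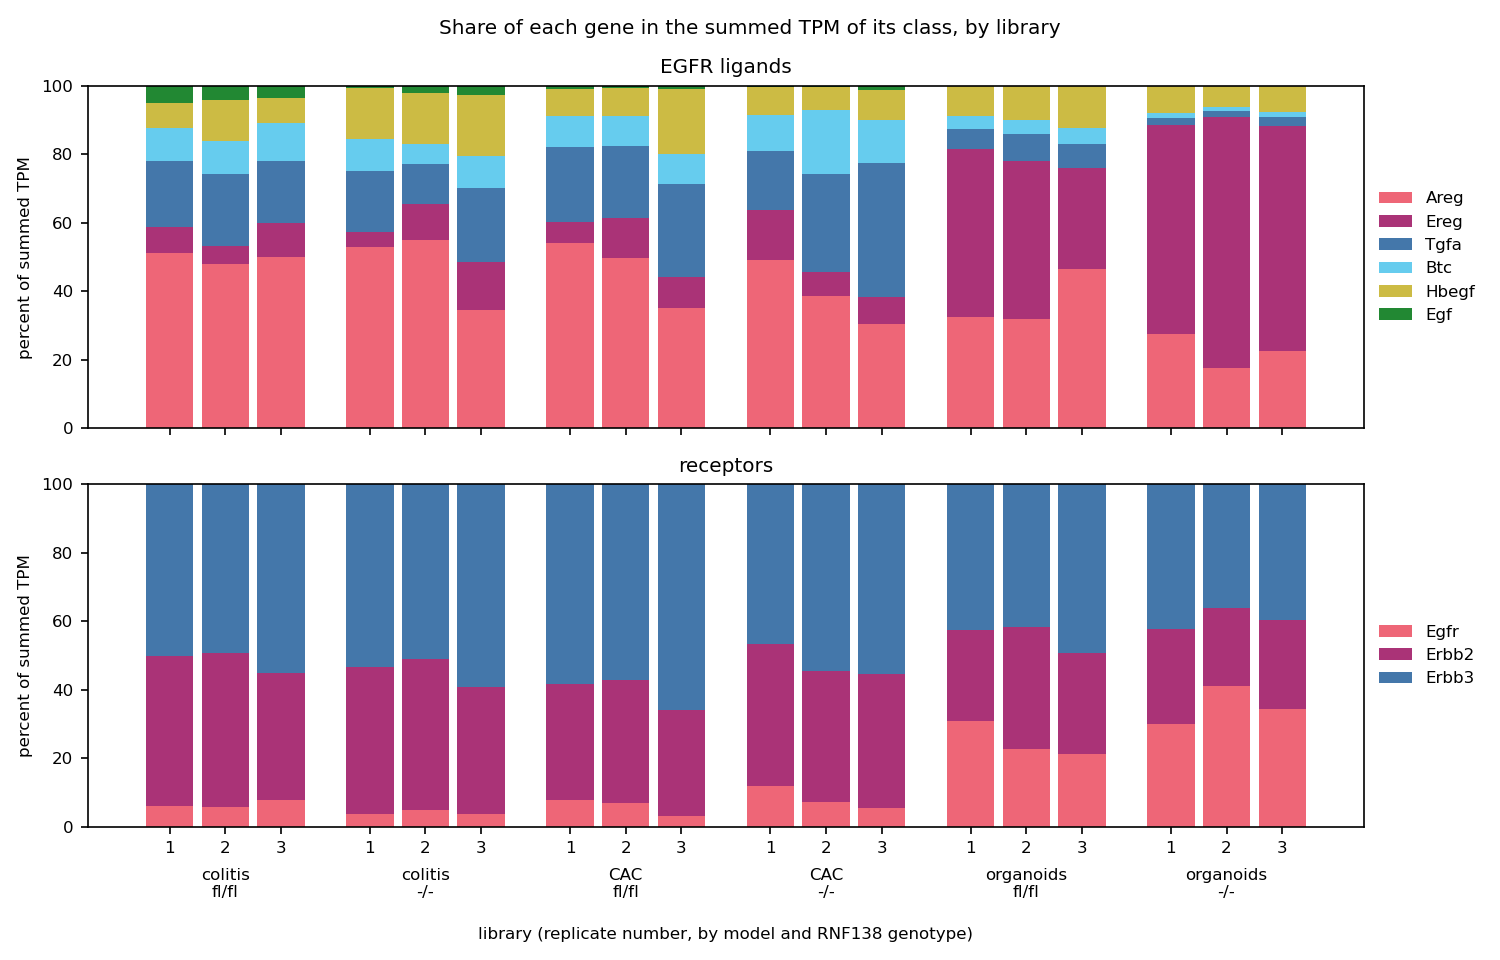
Share of each gene, in percent, in the summed TPM of the 6 EGFR ligands (top) and of the 3 receptors (bottom) in each of the 18 libraries, as stacked bars grouped by model and genotype. Ereg takes a mean of 41.6% and 66.7% of the ligand sum in the organoid groups and a mean of 7.48% to 9.90% in the tissue groups, where single libraries reach 14.8%, and Egfr takes a mean of 24.9% and 35.1% of the receptor sum in organoids.

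Among the receptors, *Egfr* had 6.49% and 4.02% of the summed receptor TPM in colitis. Its share was 5.86% and 8.07% in CAC but 24.9% and 35.1% in organoids. *Erbb2* had 42.0% and 41.4% in colitis and 30.7% and 25.4% in organoids. *Erbb3* held the largest mean share of the 3 in every group, between 39.5% and 60.5%. The 3 receptors summed to 199 and 208 TPM in colitis. The sum was 313 and 200 TPM in CAC but 112.5 and 142 TPM in organoids.

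The first comparison asked whether the models differed at 1 genotype. These contrasts come from 1 edgeR fit of all 18 libraries, with CPM on that fit's scale. Differential expression here means an adjusted p below 0.05 together with a difference of 2-fold or more. The CAC groups enter more than one contrast, so the contrasts are not independent. In RNF138fl/fl, 4 of 10 members were differentially expressed between CAC and colitis, against 13.6% of the 19390 genes tested. *Nrg1*, the ligand of ERBB3 made largely by stromal cells, rose from a mean of 5.09 to 19.4 CPM, a log2 fold change of 1.93 (SE 0.33, adjusted p = 0.000767 by edgeR). *Tgfa* rose from 24.3 to 54.3 CPM (1.16, SE 0.15, adjusted p = 7.83e-05 by edgeR), and *Hbegf*, the gene of heparin-binding EGF, rose from 7.97 to 19.7 CPM (1.30, SE 0.33, adjusted p = 0.0124 by edgeR). *Egf* was the one member that fell, from 9.24 to 2.88 CPM (-1.68, SE 0.56, adjusted p = 0.0454 by edgeR). *Btc*, the gene of betacellulin, passed the adjusted p under a 2-fold change (0.69, SE 0.23, adjusted p = 0.0416 by edgeR). The other 5 did not pass. Among them *Erbb3* passed without CAC replicate 2 (1.18, adjusted p = 0.0405 by edgeR) and without the filter on low counts (0.90, adjusted p = 0.0441 by edgeR). With a library left out it ran from 0.18 to 1.18. The *Hbegf* call was lost without RNF138fl/fl colitis replicate 1 (1.15, adjusted p = 0.0696 by edgeR) and its difference was under 2-fold without CAC replicate 3 (0.94), the *Egf* call was lost whichever of the 6 libraries was left out (adjusted p from 0.0593 to 0.125 by edgeR), and that of *Btc* was lost in 7 of 12 alternative fits.

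In the libraries labelled RNF138-/-, 3 of 10 members were differentially expressed between CAC and colitis, against 37.1% of the genes tested, and all 3 rose. *Btc* rose from 7.36 to 26.3 CPM (1.83, SE 0.23, adjusted p = 1.60e-05 by edgeR), *Tgfa* from 22.1 to 72.4 CPM (1.71, SE 0.15, adjusted p = 1.15e-06 by edgeR) and *Nrg1* from 6.22 to 21.4 CPM (1.78, SE 0.32, adjusted p = 0.000283 by edgeR). *Tgfa* and *Nrg1* were thus higher in CAC at either genotype. Squamous markers also rose in CAC, 6 of 7 past the adjusted p in RNF138fl/fl (median log2 fold change 5.13) and 5 of 7 in RNF138-/- (3.96). In RNF138-/-, 8 of 8 smooth muscle markers, 8 of 8 B and plasma cell markers and 5 of 10 epithelial markers fell as well. Fat markers (7 of 7), those of neurons and glia (8 of 9) and 5 of 10 fibroblast markers also fell past the adjusted p, with 1 fibroblast marker higher. Of 10 myeloid markers 5 rose and 1 fell. In RNF138fl/fl, 4 of 7 fat markers rose. The part of these markers in the members' values was not tested. *Erbb2* passed the adjusted p under a 2-fold change (-0.73, SE 0.27, adjusted p = 0.0325 by edgeR), and lost it without scaling (-0.42, adjusted p = 0.150 by edgeR) and in 5 of 6 fits with a library left out. *Hbegf* had a log2 fold change of 0.11 (adjusted p = 0.790 by edgeR) and *Egf* one of -0.87 (adjusted p = 0.194 by edgeR). *Egf* passed without colitis replicate 1 (-1.33, adjusted p = 0.0323 by edgeR), and with a library left out its values ran from -1.49 to -0.62. *Areg* (0.91, adjusted p = 0.0665 by edgeR) and *Ereg* (1.24, adjusted p = 0.0767 by edgeR) did not pass, and each passed in 4 of 12 alternatives, among them no scaling and no filter on low counts. With a library left out *Areg* ran from 0.17 to 1.25 and *Ereg* from 0.18 to 1.58, both lowest without CAC replicate 1.

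Between organoids and CAC in RNF138fl/fl, 7 of 10 members were differentially expressed, against 44.3% of the genes tested. Only the CAC libraries of this contrast had counts of Y-linked genes, so model and sex of the source animals cannot be told apart in it. Of these, 5 rose and were EGFR ligands, and 2 fell and were receptors. *Egf*, the other EGFR ligand, went from 2.88 to 1.15 CPM without passing. It passed, lower in organoids, in 4 of 12 alternatives, among them DESeq2 (-1.35, adjusted p = 0.0426 by DESeq2). *Ereg* rose from a mean of 13.5 to 520 CPM, a log2 fold change of 5.26 (SE 0.66, adjusted p = 7.24e-06 by edgeR). *Hbegf* rose from 19.7 to 147 CPM (2.90, SE 0.34), *Areg* from 20.7 to 133 (2.68, SE 0.42), *Btc* from 14.3 to 56.2 (1.97, SE 0.23) and *Tgfa* from 54.3 to 132 (1.28, SE 0.15). Both receptor partners fell, *Erbb3* from 425 to 105 CPM (-2.01, SE 0.38, adjusted p = 0.000295 by edgeR) and *Erbb2* from 192 to 61.0 CPM (-1.65, SE 0.28, adjusted p = 0.000109 by edgeR). Without CAC replicate 3, which had 770 CPM of *Erbb3* where replicates 1 and 2 had 260 and 245, the values were -1.27 for *Erbb3* and -1.12 for *Erbb2*, still past both thresholds. *Egfr* went the other way, from 62.7 to 112 CPM, and passed the adjusted p under a 2-fold change (0.83, SE 0.25, adjusted p = 0.00785 by edgeR), but not without organoid replicate 1 (0.49, adjusted p = 0.0745 by edgeR). Of 10 fibroblast markers, 9 rose past the adjusted p with a median log2 fold change of 2.09. Markers of other lists fell past it, 5 of 10 of epithelium (median -0.39), 7 of 8 of smooth muscle, 8 of 10 of myeloid cells and 8 of 8 of B and plasma cells. The part of these markers in the members' values was not tested.

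In libraries labelled RNF138-/-, 5 of 10 members were differentially expressed between organoids and CAC, against 44.4% of the genes tested. *Ereg* rose from 20.7 to 1298 CPM (5.97, SE 0.68, adjusted p = 2.35e-06 by edgeR), and *Hbegf* (3.24, SE 0.34) and *Areg* (2.48, SE 0.42) rose too. Without CAC replicate 1, the high one of its group for these ligands, the values were 7.03 for *Ereg*, 3.77 for *Hbegf* and 3.21 for *Areg*. All 10 fibroblast markers rose past the adjusted p, with a median of 4.33, and so did 6 of 8 of smooth muscle (median 1.88). Markers that fell past it were 10 of 10 of myeloid cells, 7 of 8 of T cells and 7 of 8 of B and plasma cells. So did 6 of 8 of endothelium and 3 of 10 of epithelium. The part of all these markers was not tested. *Egfr* rose from 45.7 to 204 CPM (2.16, SE 0.25, adjusted p = 3.19e-06 by edgeR), and *Egf* fell from 2.42 to 0.470 CPM (-2.41, SE 0.65, adjusted p = 0.00471 by edgeR). *Tgfa* (-0.21, adjusted p = 0.226 by edgeR) and *Btc* (0.12, adjusted p = 0.646 by edgeR), called in RNF138fl/fl, did not pass here, and neither did *Erbb2* (-0.62, adjusted p = 0.0576 by edgeR) or *Erbb3* (-0.40, adjusted p = 0.362 by edgeR). Without scaling 4 members were higher and 3 lower past both thresholds, against 4 and 1, and *Tgfa* (-0.83, adjusted p = 0.000746 by edgeR), *Erbb2* (-1.24, adjusted p = 0.000341 by edgeR) and *Erbb3* (-1.02, adjusted p = 0.0145 by edgeR) then passed the adjusted p. *Erbb2* also passed in 3 other alternatives. Whether those effects differ between genotypes is tested below by the interaction, in which sex and genotype of the organoids cannot be told apart.

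**Figure D3:**
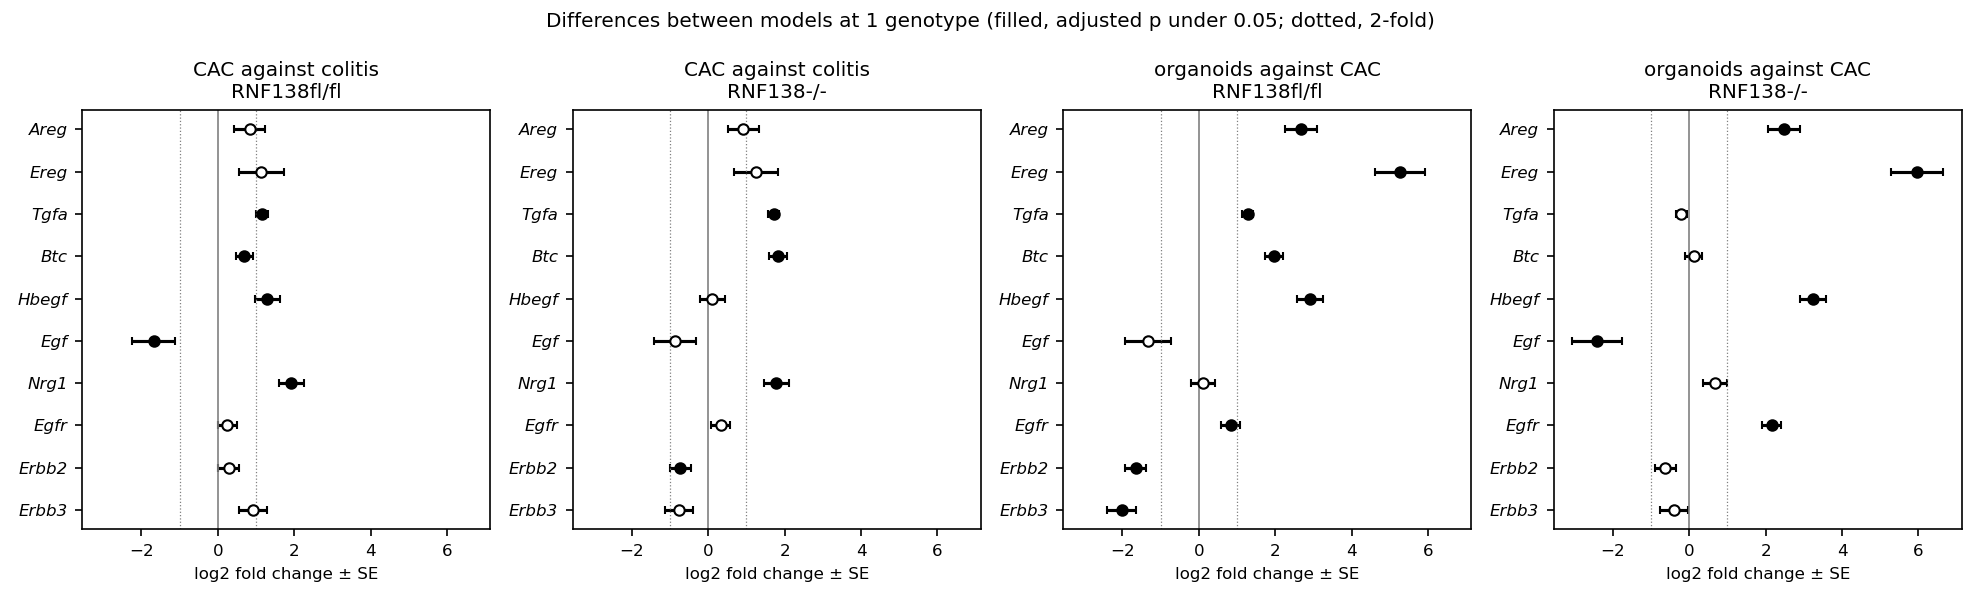
Log2 fold change and SE of the 10 genes between models at 1 genotype, from 1 fit of 18 libraries (filled, adjusted p under 0.05; dotted lines, 2-fold). Ereg has the largest differences, 5.26 and 5.97 between organoids and CAC, and Tgfa and Btc lie to the right of 0 in RNF138fl/fl but beside it in RNF138-/- organoids.

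The second comparison asked what the genotype label changed within each model, each fitted alone, with CPM on the scale of that fit. In colitis, 0 of 10 members passed by edgeR, and 0 by DESeq2, against 0.0902% of the 16623 genes tested past either threshold. With replicate numbers as pairs, edgeR also gave 0 members, and 38 genes higher and 51 lower over the whole table against 3 and 12 without pairs. At an unadjusted p under 0.05, 2 of 10 members passed by edgeR, against 10.4% of the genes tested. *Hbegf* had 6.61, 9.83 and 7.63 CPM in RNF138fl/fl libraries and 11.1, 19.4 and 17.4 in those labelled RNF138-/-, for a log2 fold change of 0.99 (SE 0.28, adjusted p = 0.261 by edgeR). *Egfr* had 51.9, 47.2 and 59.7 CPM against 33.7, 35.0 and 41.7 (-0.52, SE 0.18, adjusted p = 0.361 by edgeR). The groups did not overlap for *Hbegf*, *Egfr* or *Egf*, 3 of 10 members against 17.1% of the genes tested. With 3 against 3 an exact permutation test cannot go below p = 0.1.

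*Egf* had 10.8, 8.08 and 8.99 CPM in RNF138fl/fl colitis and 1.13, 6.32 and 5.98 in libraries labelled RNF138-/- (-1.05, SE 0.54, adjusted p = 0.560 by edgeR), and the low value was that of replicate 1. The other 7 members overlapped between genotypes, with log2 fold changes from -0.27 for *Btc* to 0.51 for *Ereg*. The median of all 10 was 0.10, against 0.02 for all genes tested. The summed T cell markers were 26.2 to 28.0 CPM in RNF138fl/fl and 45.7 to 57.9 in the libraries labelled RNF138-/-, and their part in the *Hbegf* values was not tested.

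In CAC, 0 of 10 members passed by edgeR, against 6.38% of the 17752 genes tested past the adjusted p and 5.37% differentially expressed. DESeq2 called 1 member, *Erbb3*, and *Erbb3*, *Erbb2*, *Tgfa* and *Btc* had an unadjusted p under 0.05 by edgeR, 4 of 10 against 33.8% of the genes tested, which is near the background. In the fit of all 18 libraries, with its shared estimate of the spread, these 4 passed the adjusted p (0.0144, 0.0330, 0.0478 and 0.0117 by edgeR), against 23.5% of the 19390 genes in that fit, and *Erbb3* was past 2-fold as well. Without the library labelled RNF138-/- replicate 1, or without replicate 2, edgeR called 0 genes of the whole table in CAC, with 5048 and 3900 at an unadjusted p under 0.05. *Erbb3* had 299, 285 and 914 CPM in RNF138fl/fl libraries and 145, 194 and 206 in those labelled RNF138-/-, for a log2 fold change of -1.46 (SE 0.49, adjusted p = 0.0974 by edgeR). *Erbb2* had 152, 155 and 369 CPM against 112, 118 and 127 (-0.91, SE 0.36, adjusted p = 0.134 by edgeR). The groups did not overlap for these receptors or for *Tgfa* and *Btc*, 4 of 10 members against 44.2% of the genes tested, so the count is no more than the background. For both receptors RNF138fl/fl replicate 3 stood far above the others. Without it the log2 fold change was -0.67 for *Erbb3* (adjusted p = 0.0702 by edgeR) and -0.35 for *Erbb2* (adjusted p = 0.104 by edgeR).

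Replicate 3 also had the highest summed epithelial markers of the CAC libraries, 21489 CPM, where the other 5 had 7820 to 15540. Per 1000 CPM of summed epithelial markers, *Erbb3* was 25.1 ± 9.77 in RNF138fl/fl CAC and 18.8 ± 4.99 in libraries labelled RNF138-/- (SD, n = 3), with ranges that overlapped. *Erbb2* was 11.8 ± 3.04 and 12.2 ± 1.85 on that scale, also with overlap.

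*Tgfa* and *Btc* lay higher in the CAC libraries labelled RNF138-/-, without overlap and without passing the test. *Tgfa* had 63.2, 62.6 and 63.9 CPM against 87.1, 73.2 and 83.6, a log2 fold change of 0.36 (SE 0.12, adjusted p = 0.0949 by edgeR). *Btc* had 17.96, 17.6 and 14.5 CPM against 36.9, 33.1 and 18.6 (0.82, SE 0.28, adjusted p = 0.0974 by edgeR). All 10 epithelial markers had a lower fitted level in the libraries labelled RNF138-/-, 1 past the adjusted p (median -0.92), with sums of 7820 to 9809 CPM against 10750 to 21489. Relative to 1000 CPM of these markers, *Tgfa* had 2.51 to 5.01 in RNF138fl/fl and 7.85 to 8.60 in RNF138-/-, and *Btc* had 0.568 to 1.41 and 1.91 to 3.77, so the lower denominator widens both differences. Relative to 1000 CPM of fibroblast markers the groups overlapped, with 24.2 to 36.2 and 35.4 to 68.2 for *Tgfa* and 6.80 to 8.83 and 8.08 to 28.9 for *Btc*.

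*Ereg* and *Areg* varied widely among the CAC libraries labelled RNF138-/-. *Ereg* had 11.6, 21.8 and 13.7 CPM in RNF138fl/fl libraries and 47.8, 11.3 and 10.7 in those labelled RNF138-/-. *Areg* had 29.2, 27.2 and 15.6 CPM against 46.7, 18.4 and 12.2. *Hbegf* and *Nrg1* also had their highest value among the libraries labelled RNF138-/- in replicate 1, with 31.4 and 33.1 CPM. The same library had the highest summed myeloid and squamous markers in CAC, 1165 and 153 CPM, and their part in these values was not tested. Of these 4 genes, none passed, and *Egfr* (-0.51, SE 0.24, adjusted p = 0.180 by edgeR) and *Egf* (-0.30, SE 0.48, adjusted p = 0.674 by edgeR) did not either. With a library left out *Egfr* ran from -0.77 to -0.31 and *Egf* from -0.90 to -0.02. The median of the 10 was -0.08, against 0.01 for all genes tested.

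In organoids, 4 of 10 members passed the adjusted p, 2 of them higher and 2 lower, against 35.5% of the 15294 genes tested. Of these, 3 were differentially expressed, against 15.0%. The first share lies near that of all genes. The groups did not overlap for these 4 and *Egf*, 5 of 10 members against 53.6% of the genes tested. *Tgfa* had 116, 120 and 113 CPM in RNF138fl/fl organoids and 52.9, 48.9 and 60.4 in those labelled RNF138-/-, for a log2 fold change of -1.11 (SE 0.11, adjusted p = 0.00100 by edgeR). *Btc* had 53.2, 44.0 and 51.8 CPM against 24.8, 25.04 and 24.1 (-1.01, SE 0.12, adjusted p = 0.00149 by edgeR). Both ligands were lower in 3 of 3 libraries labelled RNF138-/- and stayed past the adjusted p whichever library was left out. The *Btc* difference lies at the 2-fold line and was between -1.09 and -0.94 with 1 library left out.

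*Ereg* had 628, 445 and 305 CPM in RNF138fl/fl organoids and 1016, 1377 and 961 in those labelled RNF138-/-, for a log2 fold change of 1.28 (SE 0.27, adjusted p = 0.00948 by edgeR). *Egfr*, its receptor, had 139, 64.2 and 92.4 CPM against 157, 183 and 187 (0.83, SE 0.25, adjusted p = 0.0322 by edgeR), past the adjusted p under a 2-fold change. Both were higher in 3 of 3 libraries. The *Ereg* call held with each library left out but not in the fit of all 18 libraries (1.32, adjusted p = 0.115 by edgeR), and the *Egfr* call was lost in 5 of 6 fits with a library left out (adjusted p from 0.0571 to 0.0964 by edgeR).

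The other members gave no call in organoids. *Areg* had 122, 91.3 and 140 CPM against 135, 96.8 and 97.9 (-0.10, SE 0.19, adjusted p = 0.704 by edgeR), and *Hbegf* had 131, 112 and 146 against 155, 134 and 130 (0.11, SE 0.13, adjusted p = 0.550 by edgeR). *Nrg1* had 27.5, 16.0 and 11.6 CPM against 22.8, 36.1 and 29.7 (0.68, SE 0.31, adjusted p = 0.114 by edgeR). *Nrg1* passed without RNF138fl/fl replicate 1 (1.12, adjusted p = 0.00548 by edgeR). *Egf* had 18, 16 and 17 counts in RNF138fl/fl organoids and 9, 2 and 9 in those labelled RNF138-/- (-1.39, SE 0.56, adjusted p = 0.0849 by edgeR), too few for a firm statement. *Erbb2* had 46.4 to 59.9 CPM against 46.9 to 66.4, and *Erbb3* had 62.4 to 115 against 86.2 to 118, so both overlapped.

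**Figure D4:**
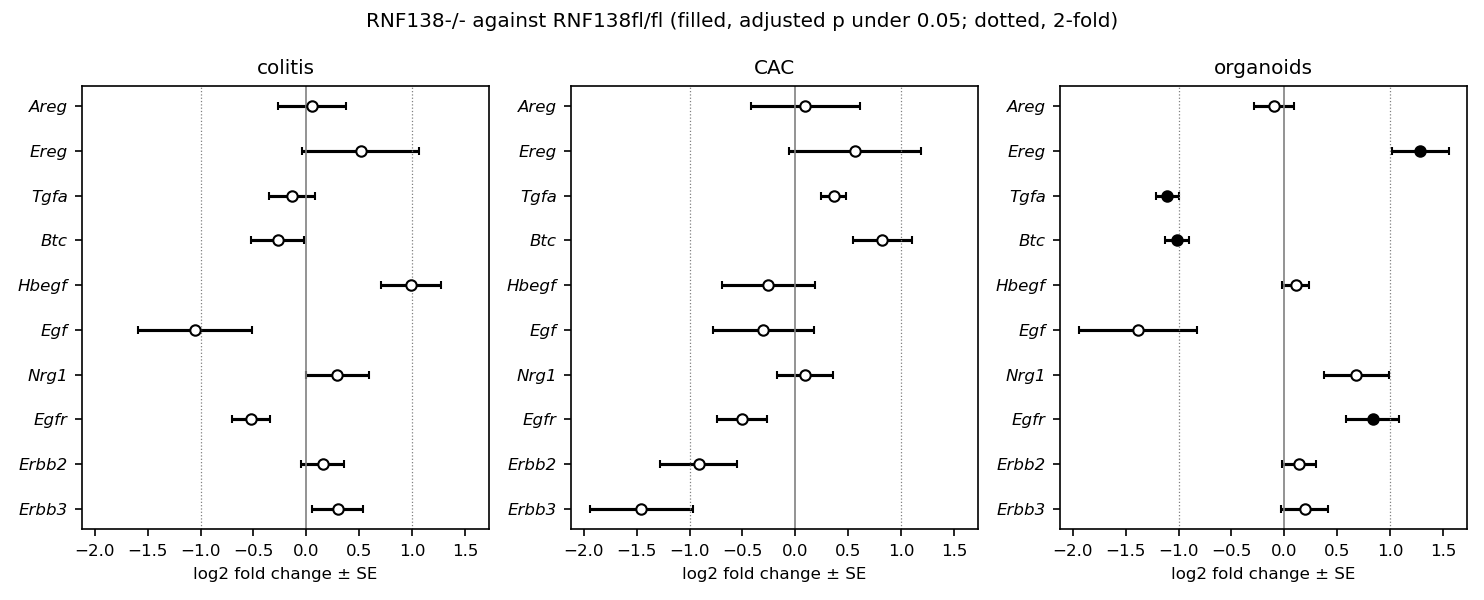
Log2 fold change and SE of the 10 genes between libraries labelled RNF138-/- and RNF138fl/fl in each model, each fitted alone (filled, adjusted p under 0.05; dotted lines, 2-fold). No point is filled in colitis or CAC, and in organoids Ereg (1.28) and Egfr (0.83) lie above 0 and Tgfa (-1.11) and Btc (-1.01) below.

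The marker sums differed between the organoid genotypes as well. All 10 fibroblast markers passed the adjusted p and were higher in organoids labelled RNF138-/- (median log2 fold change 1.61), and 5 of 10 epithelial markers were lower, with a median of -0.53 and sums of 10384 to 11534 against 6172 to 9092 CPM. RNF138fl/fl replicate 1 had the highest fibroblast sum of its group, 25485 CPM, and also the highest *Ereg*, *Egfr* and *Nrg1* of its group. On the scale of the fit of 18 libraries and per 1000 CPM of fibroblast markers, *Ereg* was 36.6 ± 11.5 in RNF138fl/fl and 26.0 ± 3.58 in libraries labelled RNF138-/- (SD, n = 3), with ranges of 28.1 to 49.7 and 22.1 to 29.2 that overlapped. *Egfr* was 6.23 to 9.66 and 3.88 to 4.30 on that scale, so its order turned round. The part of the fibroblast RNA in the *Ereg* and *Egfr* differences was not tested.

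Against the epithelial markers, *Tgfa* and *Btc* stayed lower in organoids labelled RNF138-/-. Per 1000 CPM of epithelial markers, *Tgfa* was 12.04 ± 0.715 in RNF138fl/fl and 8.15 ± 1.26 in libraries labelled RNF138-/- (SD, n = 3), and *Btc* was 5.12 ± 0.351 and 3.76 ± 0.836. For *Tgfa* the ranges, 11.5 to 12.9 and 6.75 to 9.21, were well apart, whereas for *Btc* they met at 4.72 and 4.71. On the same scale *Ereg* was 47.2 ± 15.3 and 175 ± 73.3, and *Egfr* was 10.1 ± 3.46 and 26.9 ± 7.22.

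**Figure D5:**
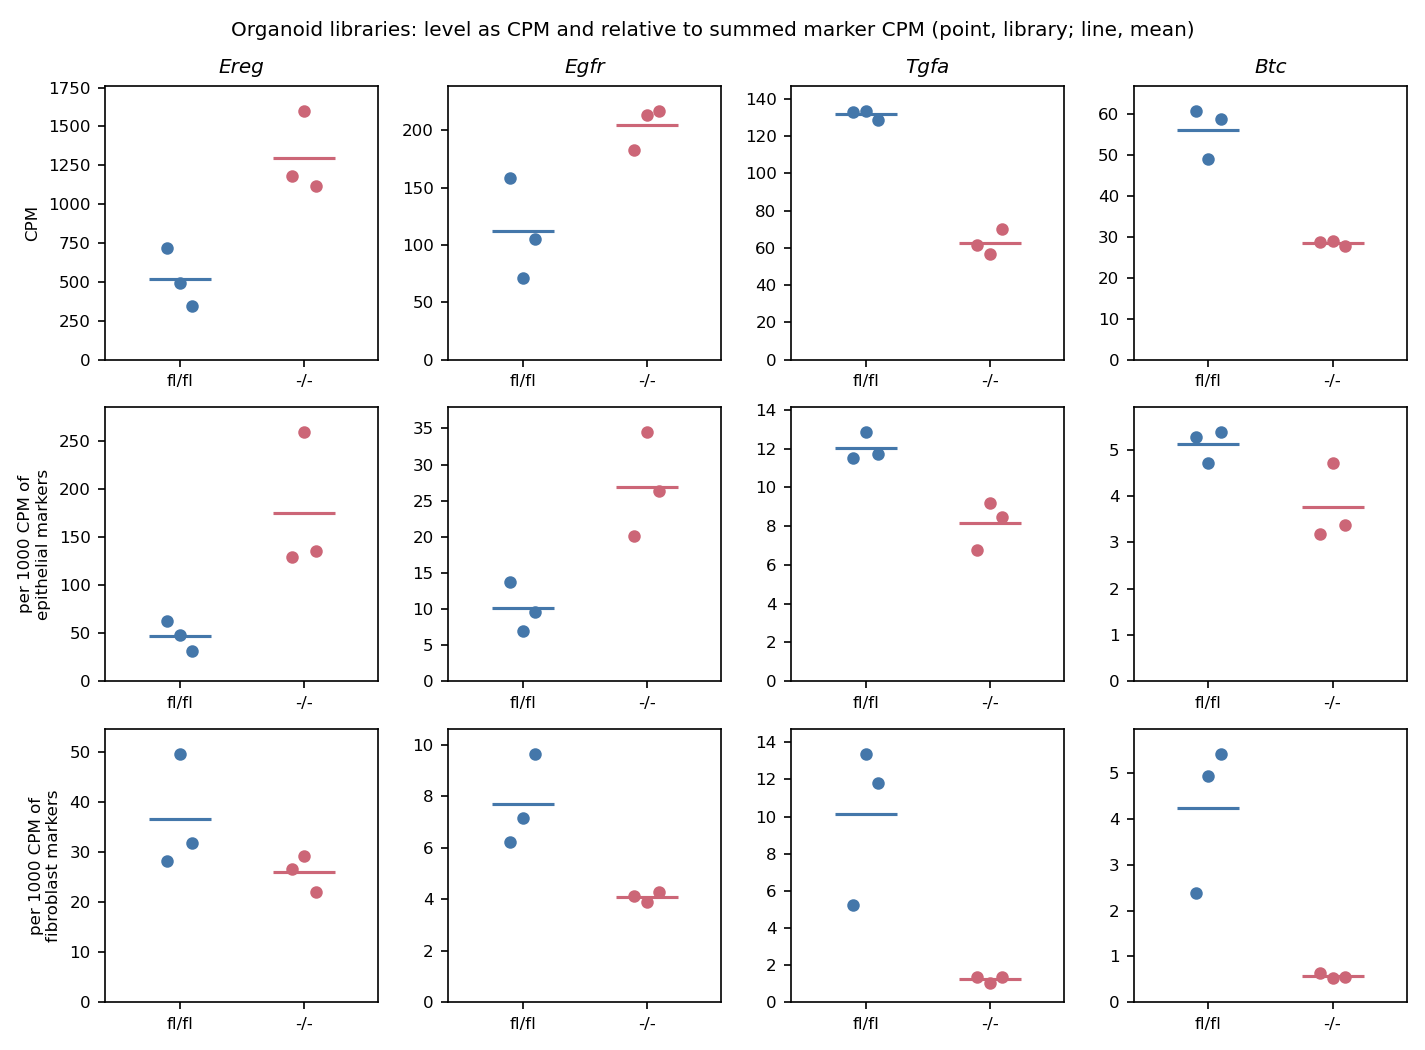
Level of Ereg, Egfr, Tgfa and Btc in each organoid library by genotype (x axis), as CPM of the fit of 18 libraries (top), per 1000 CPM of summed epithelial markers (middle) and per 1000 CPM of summed fibroblast markers (bottom); a point is 1 library and the line the mean of 3. Ereg and Egfr are higher in RNF138-/- in the upper 2 rows, with means of 47.2 and 175 for Ereg in the middle row, but not in the bottom row (36.6 and 26.0), while Tgfa and Btc are lower in all 3.

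The third comparison asked whether the genotype difference itself differed between models, as an interaction contrast in the fit of 18 libraries. Between CAC and colitis, 2 of 10 members passed, against 14.1% of the genes tested. *Btc* had a difference of 1.14 in log2 units (SE 0.32, adjusted p = 0.0272 by edgeR) and *Erbb3* one of -1.69 (SE 0.52, adjusted p = 0.0412 by edgeR). The *Erbb3* call was lost in 10 of 17 alternatives. Without RNF138fl/fl CAC replicate 3 its value was -0.94 (adjusted p = 0.120 by edgeR), and 0 members passed without that library, RNF138fl/fl colitis replicate 1 or 3, or RNF138-/- colitis replicate 1 or CAC replicate 2. In this interaction 8 of 8 smooth muscle markers, 8 of 8 B and plasma cell markers and 4 of 10 epithelial markers were lower past the adjusted p. The part of these markers was not tested.

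Between organoids and CAC, 4 of 10 members passed, against 23.3% of the genes tested. Of the groups in this contrast only the RNF138fl/fl organoids lacked Y-linked counts, so sex cannot be told apart from the interaction. *Tgfa* had a difference of -1.48 (SE 0.21, adjusted p = 0.000244 by edgeR) and *Btc* one of -1.85 (SE 0.31, adjusted p = 0.000922 by edgeR), so the genotype difference of both ligands was positive in CAC and negative in organoids. The positive differences did not pass in the fit of CAC alone. *Egfr* had 1.32 (SE 0.35, adjusted p = 0.0124 by edgeR), with -0.51 in CAC and 0.83 in organoids. *Erbb3* had 1.62 (SE 0.52, adjusted p = 0.0341 by edgeR), which was 0.87 without RNF138fl/fl CAC replicate 3 (adjusted p = 0.102 by edgeR) and lost its call in 7 of 17 alternatives. *Ereg*, called in organoids alone, had 0.71 (adjusted p = 0.554 by edgeR), so its genotype difference was not shown to differ from that in CAC. That value ran from 0.38 to 1.79 with a library left out, with 1.79 (adjusted p = 0.0718 by edgeR) without the CAC library labelled RNF138-/- replicate 1. In this interaction 7 of 10 fibroblast markers (median 2.17) and 8 of 8 smooth muscle markers (median 6.46) were higher past the adjusted p. The part of these markers was not tested.

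The rest of the pathway was read from 6 lists of genes, by counts and medians. These lists hold the other ligands and *Erbb4*, the proteins that cut ligands free, the adaptors and ubiquitin ligases at the receptor, the feedback inhibitors, the RAS to ERK cascade and genes that ERK turns on. In colitis, 0 of their 58 genes tested passed by edgeR and 8 had an unadjusted p under 0.05, a share close to the 10.4% of all genes. DESeq2 gave 1 gene lower, among the feedback inhibitors. In CAC, 4 of the 58 genes were differentially expressed above 5 CPM, and *Nrg2* below it, all lower in libraries labelled RNF138-/-. At any CPM, 5.37% of all genes were called, 857 lower and 97 higher, so lower was the usual direction of a call. *Map2k1*, which encodes the kinase MEK1 above ERK, had 181 CPM in RNF138fl/fl and 89.7 in libraries labelled RNF138-/- (-1.01, adjusted p = 0.0299 by edgeR). *Lrig3*, of a family of receptor-binding proteins, had 49.5 and 16.7 CPM (-1.57, adjusted p = 0.0359 by edgeR), *Rhbdl2*, a rhomboid protease, had 59.8 and 21.2 (-1.49, adjusted p = 0.0427 by edgeR), and *Etv1*, an ETS factor, had 10.5 and 1.93 (-2.42, adjusted p = 0.0401 by edgeR). *Nrg2*, the call below 5 CPM, had a value of -2.60. These calls stood beside the loss of smooth muscle and B cell markers in the same libraries, whose part was not tested. Without scaling, 2 of the 58 genes were lower, 1 was higher, and the calls of *Rhbdl2*, *Lrig3* and *Map2k1* were lost. None of the 58 passed without the library labelled RNF138-/- replicate 1, where the whole table gave 0 calls by edgeR too, and 14 of the 58 had an unadjusted p under 0.05.

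The 12 ERK output genes had a median log2 fold change of 0.74 in CAC, against 0.01 for all genes tested, with 10 of 12 above 0, although the 1 gene past the adjusted p, *Etv1*, was lower. By DESeq2, 1 more passed, higher. The median was 0.49 without RNF138fl/fl replicate 3, where 2 genes were higher and 1 lower past the adjusted p. In the same comparison 8 of 10 myeloid markers (median 0.49) and 4 of 6 squamous markers (0.83) were above 0, and all 10 epithelial markers were below 0 (-0.92). The part of these markers in the ERK output values was not tested.

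In organoids, the genes of ligand release gave 4 higher of 8 past the adjusted p and 0 lower, with a median of 0.69 against -0.04 for all genes tested. Over all genes tested, 17.9% were higher and 17.7% lower past the adjusted p, and these shares are the background for this count and the counts of the lists that follow. Without scaling, ligand release gave 4 higher and 1 lower. They were *Adam17* (0.72), *Adam9* (0.92), *Adam12* (0.92) and *Rhbdf1* (0.66), of which ADAM17 is the main sheddase of several EGFR ligands and RHBDF1 is a cofactor in its maturation. Among adaptors and receptor ubiquitin ligases, 2 of 10 were higher and 3 lower, and *Shc1*, an adaptor of active receptors, had 124 and 260 CPM (1.06, adjusted p = 0.00186 by edgeR). Among the 15 feedback inhibitors, 5 were higher and 1, *Spry1*, lower, but without TMM scaling 2 were higher and 1 lower. *Dusp5*, a phosphatase of ERK, had 90.9 and 196 CPM (1.11, adjusted p = 0.00558 by edgeR).

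Of the 11 genes of the RAS to ERK cascade, 3 were higher and 1 lower in organoids labelled RNF138-/-, and *Ksr1*, a scaffold of the cascade, had 35.2 and 98.1 CPM (1.47, adjusted p = 0.00557 by edgeR). Of the 12 ERK output genes, 4 were higher and 3 lower (*Etv5*, *Phlda1* and *Myc*), with a median of 0.02. The ETS factors *Etv1*, with 3.32 and 24.6 CPM (2.89, adjusted p = 0.000678 by edgeR), and *Etv4*, with 28.8 and 72.2 CPM (1.32, adjusted p = 0.000779 by edgeR), were differentially expressed. *Etv1* was thus lower in CAC and higher in organoids, and *Etv5* moved against *Etv4*. Of the other ligands and receptor (*Epgn*, *Nrg2*, *Nrg3*, *Nrg4*, *Erbb4*), 2 of 5 were tested in organoids and 0 passed by edgeR, by DESeq2 or at an unadjusted p under 0.05. The fibroblast and epithelial marker sums moved with all these organoid counts, and their part was not tested.

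As a description of likeness, each member was compared with 12423 other genes of a mean of at least 5 CPM (12424 for *Egf*), by Pearson's r of log2 (CPM + 1) across the 18 libraries. The libraries share the step from tissue to organoids, so r over the 12 tissue libraries is given beside some of them. *Ereg* was most like *Ptgs2*, the gene of cyclooxygenase-2 (r = 0.987), and *Fosl1*, an AP-1 subunit (0.987), with 0.819 and 0.743 over the 12 tissue libraries. *Hbegf* was most like *Ereg* itself (0.966, and 0.674 in tissue) and *Ero1l*. *Areg* was most like *Plaur*, the urokinase receptor gene (0.964, and 0.785 in tissue), and *Denr*.

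*Tgfa* and *Btc* shared their nearest gene, *Btbd10*, with r of 0.981 and 0.966 over 18 libraries and 0.966 and 0.924 in tissue. The next were *Ankrd29* for *Tgfa* and *Gm17586* for *Btc* (0.964 each). *Nrg1* was most like the metalloprotease gene *Mmp10* (0.950, and 0.964 in tissue) and *Cemip* (0.945), and *Egfr* most like *Fam102b* (0.974) and *Jak1* (0.964). *Erbb2* was most like *Entpd8* (0.973) and *Nol4l* (0.969), *Erbb3* most like *Fam234a* (0.947) and *Mcu* (0.943), and *Egf* most like *Hibch* (0.934) and *9130024F11Rik* (0.931).

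Reads of a few members can be shared with overlapping genes, because the strand setting of the counting is not given. The share of 50-base windows that occur in another gene, on either strand, was 8.11% for *Egf*, 4.09% for *Nrg1*, 2.26% for *Ereg*, 1.08% for *Tgfa* and 0.231% for *Egfr*, and 0 for the other 5.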

How the data were processed

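RNA-seq was analysed in 18 libraries of mouse colon or colon organoids. The authors deposited read counts for 36757 genes, in whole numbers and not normalized. The submitters' processing notes name STAR 2.6.1d, HTSeq 0.11.2, DESeq2 and mm10, and the study's methods name Cufflinks and Gencode v.M8. Libraries were made with a TruSeq kit, and the strand setting of the counting is not given in the sources used here. A second deposited table holds the authors' own log2 fold changes and p-values and was not used. Total counts were between 11514716 and 24390082 (median 17332367), so low genes such as *Egf* in organoids rest on few reads. No sample column was left unused.

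Groups were taken from the sample labels. Counts were filtered (filterByExpr), normalized by TMM and fitted with edgeR 4.0.16 in R 4.3.3 (limma 3.58.1), using glmQLFit and glmQLFTest with Benjamini-Hochberg adjustment over all genes tested. Genotypes were compared in a fit of each model, and models and interactions in a fit of all 18 libraries. Differential expression means an adjusted p below 0.05 together with a difference of 2-fold or more. The SE is the size of the log2 fold change divided by the square root of F. TPM used the union of exons of GENCODE M21, which matched 36700 genes. Alternatives were DESeq2 1.42.0, RLE normalization, no scaling beyond library size, no filter, a replicate block, 1 fit of all libraries, and each library left out. Fits were also run on simulated data, whose outcome is not given here. No library was a copy of another of its group (chi-square per degree of freedom of 7.44 or more).

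The members and lists were chosen with earlier results of these data known. The genes named are the members, *Rnf138*, the genes of each list that were differentially expressed and had 5 CPM or more in the higher group (at most 3 a list), the 2 genes most like each member, and markers that moved with a result. Others were named after their values were seen. *Nrg2* and the genes of ligand release, *Spry1*, *Etv5*, *Phlda1* and *Myc* are among these. Same-numbered colitis libraries deviated together over all genes (r of 0.273, 0.124 and 0.554). The labels do not say that the numbers pair samples, and the main colitis fit used no pairs. Pairing by number entered only as the replicate block among the alternatives. Protein sequences and the promoters of *Ereg*, *Nrg1*, *Erbb3* and *Hbegf* were not used here.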

Additional observations from a re-analysis of the deposited data

Results flagged for a closer look

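Between CAC and colitis, the genotype difference itself differed for *Btc* by 1.14 in log2 units (SE 0.32, adjusted p = 0.0272 by edgeR) and for *Erbb3* by -1.69 (SE 0.52, adjusted p = 0.0412 by edgeR). Between organoids and CAC it differed for *Tgfa* by -1.48 (SE 0.21, adjusted p = 0.000244 by edgeR), for *Btc* by -1.85 (SE 0.31, adjusted p = 0.000922 by edgeR), for *Egfr* by 1.32 (SE 0.35, adjusted p = 0.0124 by edgeR) and for *Erbb3* by 1.62 (SE 0.52, adjusted p = 0.0341 by edgeR). What flagged each of these 6 values is a tested difference between the genotype effects of 2 models (RNF138-/- minus RNF138fl/fl in the first named model, minus the same in the second). The *Btc* value between CAC and colitis lost its call in 7 of 17 alternatives. The *Erbb3* values lost their call in 10 of 17 alternatives between CAC and colitis and in 7 of 17 between organoids and CAC. Both contrasts share the CAC libraries, so they are not independent. Cell type markers also differed in both, and their part was not tested. In organoids sex of the source animals cannot be told apart from genotype.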

How the results depend on the processing

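Of 1180 values of single members under the alternatives, 1041 kept their direction and their side of the threshold, 53 lost a call, 42 gained one and 44 changed sign. The count of members differentially expressed by genotype in CAC, 0, became 1 by DESeq2 and 1 in the fit of all 18 libraries, and in organoids 3 became 1 in that fit and 2 to 4 with a library left out. Between CAC and colitis, 4 in RNF138fl/fl became 2 to 4 with a library left out, with 2 both without RNF138fl/fl colitis replicate 1 and without RNF138fl/fl CAC replicate 3. The 3 in RNF138-/- became 5 without scaling and 3 to 5 with a library left out, with 5 without RNF138-/- colitis replicate 2 or CAC replicate 3. The 2 interactions between CAC and colitis became 1 without scaling and 0 to 3 with a library left out. The interaction of *Btc* there was lost in 7 of 17 alternatives and that of *Erbb3* in 10 of 17.

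With the replicate block, *Areg* went to -0.015 in colitis and -0.081 in CAC, and the block changed no other direction. The members called by genotype stayed at 0 in colitis, 0 in CAC and 3 in organoids, while between CAC and colitis in RNF138fl/fl *Egf* (adjusted p = 0.0520 by edgeR) and *Btc* (0.69, adjusted p = 0.0564 by edgeR) no longer passed, and *Erbb2* passed between organoids and CAC in RNF138-/- (-0.64, adjusted p = 0.0375 by edgeR). In CAC and organoids same-numbered libraries did not all deviate together, so they share only a number.

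Without scaling, uncalled values turned to 0.044 for *Hbegf* in CAC, and in organoids to -0.100 for *Hbegf*, -0.063 for *Erbb2* and -0.010 for *Erbb3*. Between organoids and CAC they turned to -0.0867 for *Nrg1* in RNF138fl/fl and -0.50 for *Btc* in RNF138-/-, where *Tgfa*, *Erbb2* and *Erbb3* gained a pass, lower in organoids, and in the interactions to 0.073 for *Nrg1* (CAC and colitis) and -0.14 for *Hbegf* (organoids and CAC).

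With a library left out, the log2 fold change by genotype ranged from -0.36 to 0.26 for *Areg* in colitis. In CAC it ranged from -0.65 to 0.45 for *Areg*, -0.80 to 0.13 for *Hbegf*, -0.51 to 0.93 for *Ereg* and -0.20 to 0.30 for *Nrg1*. In organoids it ranged from -0.27 to 0.044 for *Areg* and -0.028 to 0.37 for *Erbb3*. Between CAC and colitis it ranged from -0.25 to 0.47 for *Erbb2* in RNF138fl/fl and -0.43 to 0.34 for *Hbegf* in RNF138-/-. Between organoids and CAC it ranged from -0.32 to 0.33 for *Nrg1* in RNF138fl/fl and -0.13 to 0.30 for *Btc* in RNF138-/-. In the interactions of CAC and colitis it ranged from -0.66 to 0.43 for *Areg*, -0.97 to 0.44 for *Ereg*, -0.44 to 0.040 for *Nrg1* and -0.19 to 0.25 for *Egfr*, and in those of organoids and CAC from -0.53 to 0.55 for *Areg* and -0.0086 to 0.89 for *Hbegf*. None of these was called with all libraries. The causes were not tested.

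Over all genes, scaling moved the share of higher calls by genotype in organoids from 53.0% to 36.1% without it, with the median log2 fold change going from -0.04 to -0.24, and in CAC the median went from 0.01 to 0.27. Without scaling the share went from 47.1% to 62.0% between CAC and colitis and from 40.3% to 21.1% between organoids and CAC in RNF138-/-, and from 21.5% to 36.7% and from 60.2% to 30.7% in the interactions. By DESeq2 the genotype gave 199 genes higher and 138 lower in colitis against 3 and 12 by edgeR, and 575 and 2075 in CAC against 97 and 857. Without the filter these were 207 and 147 in colitis and 226 and 1415 in CAC, and in the fit of all libraries 729 and 2105 in CAC. Without the library labelled RNF138-/- replicate 1 or 2, edgeR gave 0 and 0 in CAC. A fit with Y-linked expression as a term could not be made, since all tissue libraries had Y-linked counts and in organoids these followed the genotype.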
